A study of Mus musculus with 6 samples.

Results

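The membrane-bound adenylyl cyclase genes Adcy1 to Adcy9 were followed in mouse embryonic stem cells that had received an antisense oligonucleotide (ASO) against LINE1 or a control ASO. All 9 were found by symbol among the 19467 genes of the deposited table. They were chosen by family name with the difference between the arms, and the control level, of each gene already in view, so that difference is described for them here and not tested. E14Tg2A is a feeder-independent mouse embryonic stem cell line, grown in these experiments with serum and leukaemia inhibitory factor. The LINE1 ASO arm received an ASO directed at LINE1, a family of long interspersed retrotransposons, and the RC ASO arm received the control ASO labelled RC. Both arms had 5 nmol of an ASO carrying the dye Lissamine delivered by nucleofection, an electroporation method, and 300000 fluorescent cells were sorted per sample after 48 h. Each arm had 3 messenger RNA libraries. Whether the replicates were separate cultures is not in the labels, so every p-value reflects only how these libraries varied, which may be technical variation.

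Adenylyl cyclases make cyclic AMP from ATP. The membrane-bound enzymes sit below receptors coupled to heterotrimeric G proteins: the alpha subunit of Gs stimulates them, that of Gi inhibits several of them, and the family members differ in how calcium and the beta-gamma subunits act on them. Cyclic AMP in turn activates protein kinase A, the Epac exchange factors and cyclic nucleotide-gated channels, and phosphodiesterases break it down.

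The libraries held 26633433 to 31704616 gene-assigned reads in the LINE1 ASO arm and 19954026 to 29092272 in the RC ASO arm. Reads of the 6 L1Md repeats, which belong to the targeted family, summed to 3275 to 7220 CPM (counts scaled to the gene-assigned reads with TMM factors) in the LINE1 ASO libraries and 3931 to 7891 CPM in the RC ASO libraries. These ranges overlapped, and within each replicate number the LINE1 ASO library was the lower one (7220 against 7891, 3275 against 3931 and 6586 against 7780 CPM). Summed levels of 8 embryonic stem cell markers were 3680 to 4506 CPM in the LINE1 ASO arm and 4956 to 5435 CPM in the RC ASO arm. All 8 had log2 fold changes below 0, with 1 called lower (Pou5f1, at -0.36) and 7 with the replicate block. Of all fitted genes 1.17% were called lower, and 16.1% with the block. Replicate 2 of both arms stood apart from the other libraries on the second principal component (24.2% of variance).

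The promoters of the 3 genes with the largest differences, Adcy5, Adcy2 and Adcy7, are printed with those of Adcy1 and Adcy9, whose levels were close between the arms. RefSeq windows on GRCm38.p6 run from 250 bases before to 50 bases after a start and were found for 7 of the 9 genes, all but Adcy6 and Adcy8. The windows lie at chr16:35154614-35154913 (plus strand) for Adcy5, chr13:68999492-68999791 (minus strand) for Adcy2, chr8:88282742-88283041 (plus strand) for the most upstream of 3 Adcy7 starts, chr11:7063183-7063482 (plus strand) for Adcy1 and chr16:4420449-4420748 (minus strand) for Adcy9. Capitals mark a match on either strand to the GC box GGGCGG, the CCAAT box CCAAT, the TATA box TATAAA, the cyclic AMP response element TGACGTCA or its 5-letter core TGACG, which the full element contains.
Adcy5: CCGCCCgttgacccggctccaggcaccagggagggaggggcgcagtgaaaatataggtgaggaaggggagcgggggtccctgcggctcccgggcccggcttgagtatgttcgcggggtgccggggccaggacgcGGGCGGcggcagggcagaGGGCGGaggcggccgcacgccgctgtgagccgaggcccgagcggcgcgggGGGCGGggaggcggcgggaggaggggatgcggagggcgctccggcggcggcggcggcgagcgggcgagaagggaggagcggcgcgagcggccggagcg
Adcy2: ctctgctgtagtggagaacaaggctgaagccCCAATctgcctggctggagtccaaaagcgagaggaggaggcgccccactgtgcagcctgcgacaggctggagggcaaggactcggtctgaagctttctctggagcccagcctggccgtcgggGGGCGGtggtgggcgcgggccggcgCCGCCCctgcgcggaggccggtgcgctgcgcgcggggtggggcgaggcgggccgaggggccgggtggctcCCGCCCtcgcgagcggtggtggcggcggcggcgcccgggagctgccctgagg
Adcy7: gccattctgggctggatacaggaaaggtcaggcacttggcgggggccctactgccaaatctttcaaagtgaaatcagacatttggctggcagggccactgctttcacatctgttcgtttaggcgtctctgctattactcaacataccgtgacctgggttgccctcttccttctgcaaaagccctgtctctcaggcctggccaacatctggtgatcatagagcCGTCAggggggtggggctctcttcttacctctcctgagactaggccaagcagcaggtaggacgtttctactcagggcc
Adcy1: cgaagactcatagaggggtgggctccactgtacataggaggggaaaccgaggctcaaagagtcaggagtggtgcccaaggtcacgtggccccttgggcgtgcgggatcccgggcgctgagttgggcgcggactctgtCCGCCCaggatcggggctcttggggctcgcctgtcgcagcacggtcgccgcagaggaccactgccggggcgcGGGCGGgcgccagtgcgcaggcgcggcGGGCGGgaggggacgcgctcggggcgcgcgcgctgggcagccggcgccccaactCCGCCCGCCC
Adcy9: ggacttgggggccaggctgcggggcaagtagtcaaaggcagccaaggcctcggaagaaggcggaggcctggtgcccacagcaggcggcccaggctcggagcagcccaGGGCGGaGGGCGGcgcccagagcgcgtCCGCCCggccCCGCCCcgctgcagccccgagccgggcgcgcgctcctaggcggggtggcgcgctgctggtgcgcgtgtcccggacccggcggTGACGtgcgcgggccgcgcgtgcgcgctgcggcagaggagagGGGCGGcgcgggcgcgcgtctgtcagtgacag

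The windows of Adcy5 and Adcy2 were rich in G and C and in CpG, at 79% G+C with 44 CpG and 75% with 32, but so were those of Adcy9 (78.3%, 42 CpG) and Adcy1 (74%, 37 CpG). The Adcy7 window had 54.7% G+C and 6 CpG, close to the median of 52.7% and 7 CpG over 32851 windows. The GC box was matched 4 times in Adcy5, 3 times in Adcy2, 5 times in Adcy1 (2 of these overlapping each other) and 5 times in Adcy9, and the printed Adcy7 window held no match, where 35.7% of all windows held at least 1. The CCAAT box, in 37.4% of windows, was matched in Adcy2 among these 5. The TATA box (13.6% of windows) and the full cyclic AMP response element (1.79%) were in none of the 5, and the core TGACG (20.8%) was matched once in Adcy7 and once in Adcy9. No searched motif was shared by Adcy5, Adcy2 and Adcy7 in the windows printed. This depends on the Adcy7 start chosen. Of its windows not printed, that of start 3 held 1 match to the GC box and that of start 2 held 2 to the CCAAT box. Which start these cells used was not tested.

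The 9 genes did not move together. Adcy5, Adcy2 and Adcy7 had clearly more reads in the LINE1 ASO arm, Adcy6 had somewhat more, Adcy1, Adcy3 and Adcy9 differed little, Adcy4 had few reads, and Adcy8 was at the limit of detection. Of the 8 genes with enough reads to be fitted, 3 were called higher (Adcy5, Adcy2 and Adcy7, at an adjusted p under 0.05 in edgeR's quasi-likelihood fit of all genes with Benjamini-Hochberg adjustment) and 0 lower, where 4.93% of all 14725 fitted genes were called higher and 1.17% lower. Since the genes were picked on this difference, nothing is read from their count.

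**Figure D1:**
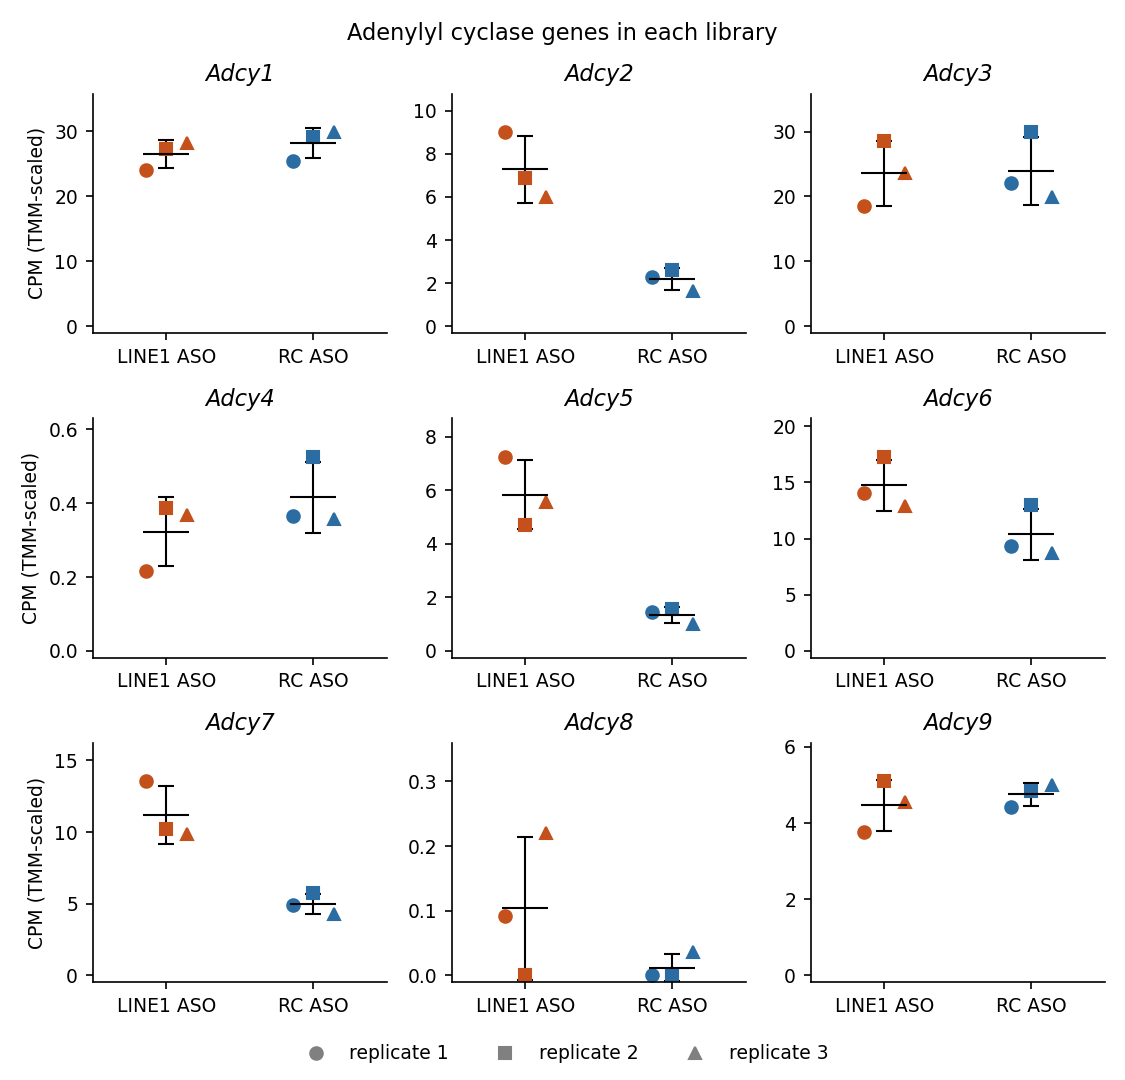
TMM-scaled CPM of each adenylyl cyclase gene (vertical axes, each from near 0) in the 3 LINE1 ASO and 3 RC ASO libraries (horizontal axis), with symbols for the replicate number, the arm mean as a line and ± 1 SD as bars. The arms do not overlap for Adcy2, Adcy5 and Adcy7, and the Adcy8 points stand for 0 to 6 reads.

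Adcy5 and Adcy6 encode the calcium-inhibited enzymes, which Gi also inhibits and which are the main forms of heart muscle, with Adcy5 also prominent in the striatum. Adcy5 had 235, 146 and 151 reads in LINE1 ASO replicates 1, 2 and 3 and 28, 42 and 28 in RC ASO replicates 1, 2 and 3. In CPM these were 7.24, 4.70 and 5.54 in the LINE1 ASO libraries and 1.46, 1.58 and 0.999 in the RC ASO libraries. Every LINE1 ASO library lay above every RC ASO library, and replicate 1 was the highest of the LINE1 ASO arm. The means were 5.83 ± 1.29 CPM in the LINE1 ASO arm and 1.34 ± 0.305 CPM in the RC ASO arm (SD, n = 3 each), a fitted 4.35-fold difference (log2 fold change 2.12 ± 0.25, SE).

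Adcy6 stood at 14.05, 17.3 and 12.9 CPM in LINE1 ASO replicates 1, 2 and 3 and at 9.37, 13.0 and 8.74 CPM in the RC ASO replicates. The arms just overlapped, because RC ASO replicate 2, the highest control library, lay level with LINE1 ASO replicate 3. Within each replicate number the LINE1 ASO library was the higher one, by log2 ratios of 0.58, 0.41 and 0.56. The fitted log2 fold change was 0.51 ± 0.19 (SE), from 14.7 ± 2.25 CPM in the LINE1 ASO arm and 10.4 ± 2.29 CPM in the RC ASO arm (SD, n = 3 each), and it was not called.

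Adcy2, Adcy4 and Adcy7 encode the enzymes that beta-gamma subunits stimulate in the presence of active Gs. Adcy2, a brain form in the adult, had 292, 213 and 163 reads in LINE1 ASO replicates 1, 2 and 3 and 44, 70 and 46 in the RC ASO replicates. These were 8.996, 6.86 and 5.98 CPM in the LINE1 ASO libraries and 2.29, 2.63 and 1.64 CPM in the RC ASO libraries. The arms did not overlap, and replicate 1 was again the highest LINE1 ASO library. The means were 7.28 ± 1.55 CPM in the LINE1 ASO arm and 2.19 ± 0.501 CPM in the RC ASO arm (SD, n = 3 each), and the log2 fold change was 1.74 ± 0.24 (SE).

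Adcy7, the form best known from platelets and immune cells, stood at 13.5, 10.2 and 9.88 CPM in LINE1 ASO replicates 1, 2 and 3 and at 4.89, 5.75 and 4.32 CPM in the RC ASO replicates. The arms did not overlap here either, and the order of the libraries within each arm was that of Adcy2. The means were 11.2 ± 2.02 CPM in the LINE1 ASO arm and 4.99 ± 0.718 CPM in the RC ASO arm (SD, n = 3 each), and the log2 fold change was 1.17 ± 0.18 (SE). Adcy4 had 7, 12 and 10 reads in the LINE1 ASO replicates and 7, 14 and 10 in the RC ASO replicates, so its log2 fold change of -0.38 ± 0.36 (SE) rests on few reads.

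Adcy1, Adcy3 and Adcy8 encode calmodulin-stimulated enzymes, known from neurons and, for Adcy3, from olfactory neurons and primary cilia. Adcy1 stood at 24.1, 27.3 and 28.2 CPM in the LINE1 ASO libraries and 25.5, 29.2 and 29.9 CPM in the RC ASO libraries. The ranges overlapped, although within each replicate number the LINE1 ASO library was slightly lower (log2 ratios of -0.08, -0.09 and -0.08), and the log2 fold change was -0.09 ± 0.10 (SE). Adcy3 stood at 18.6, 28.6 and 23.6 CPM in the LINE1 ASO libraries and 22.1, 29.9 and 19.95 CPM in the RC ASO libraries, with replicate 2 the highest of both arms and a log2 fold change of -0.02 ± 0.20 (SE). Exons of Adcy3 share 1380 bases with the oppositely transcribed Cenpo, a centromere protein gene, and since the strand setting of the counting is not given, reads from that stretch cannot be told apart. The same holds for 189 bases that Adcy2 shares with the antisense gene Gm35161 and 605 bases that Adcy6 shares with Gm29331. Cenpo had 35.1 ± 3.03 CPM in the LINE1 ASO arm and 35.2 ± 2.59 CPM in the RC ASO arm (SD, n = 3 each). Adcy8 had 3, 0 and 6 reads in the LINE1 ASO replicates and 0, 0 and 1 in the RC ASO replicates. A count of 0 allows up to 3 reads (counting error only), 0.0924 to 0.156 CPM in these libraries, so no fold is given. Adcy8 did not pass the count filter and was left out of the fit. Adcy9, the form least sensitive to forskolin, stood at 3.76, 5.09 and 4.55 CPM in the LINE1 ASO libraries and 4.43, 4.84 and 5.00 CPM in the RC ASO libraries, with overlapping arms and a log2 fold change of -0.09 ± 0.17 (SE).

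**Figure D2:**
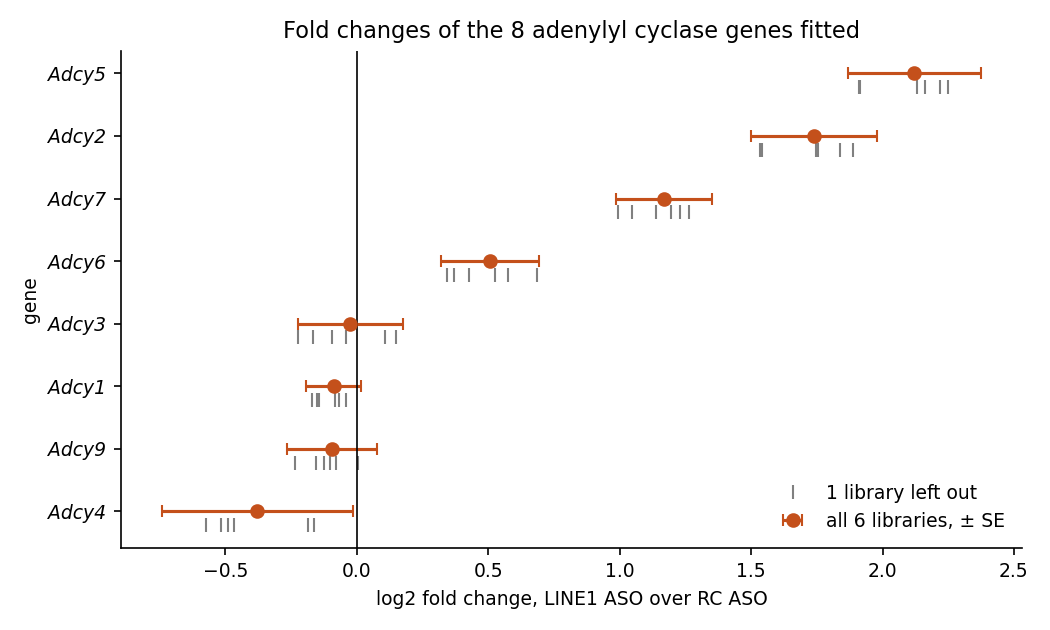
Log2 fold change of LINE1 ASO over RC ASO (horizontal axis) for the 8 genes fitted (vertical axis), as points with ± SE from all 6 libraries and as grey ticks with 1 library left out each. The values of Adcy5, Adcy2 and Adcy7 stay above 0.99 in every such fit, and the ticks of Adcy3 and Adcy9 fall on both sides of 0.

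With any single library left out, the log2 fold changes ranged from 1.91 to 2.25 for Adcy5, from 1.54 to 1.89 for Adcy2, from 0.99 to 1.27 for Adcy7 and from 0.34 to 0.68 for Adcy6. The calls depended on the control libraries: without RC ASO replicate 1 Adcy5 alone was called, and without RC ASO replicate 3 Adcy5 and Adcy2 were. Adcy6 was called as well without RC ASO replicate 2, without both replicate 2 libraries (a setting added once the data had been seen, in which 12.2% of genes were called higher and 8.30% lower), and in the fit with the replicate number as a block. That block fit called 4 of the 8 genes higher and 0 lower, against 17.6% of all genes higher and 16.1% lower. Groups that do not overlap were found for Adcy5, Adcy2 and Adcy7, all with the LINE1 ASO libraries above, as in 16.8% of all fitted genes, while 11.9% had every LINE1 ASO library below. The signs of the small differences of Adcy3 and Adcy9 changed between settings, for instance to 0.06 for Adcy3 with library totals and to 0.003 for Adcy9 without LINE1 ASO replicate 1.

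The called genes were weakly expressed in control cells, a range in which genes were called higher more often than at high levels. Adcy5, Adcy2, Adcy7 and Adcy9 all lay between 1 and 5 CPM in the RC ASO arm, a band of 2383 genes of which 7.39% were called higher and 0.0839% lower. In the band of 5 to 20 CPM, which held Adcy6, 3.84% of 3050 genes were called higher, and above 20 CPM, where Adcy1 and Adcy3 lay, 1.96% of 7482. Adcy4, under 1 CPM, was in the band with the largest share called higher, 15.8% of 1810 genes. The genes span 15.0 kb (Adcy4) to 379.5 kb (Adcy2) on GRCm38, with Adcy5 at 150.9 kb and Adcy7 at 57.6 kb. By span, 5.79% of genes over 100 kb, 5.33% of those of 30 to 100 kb and 4.75% of shorter genes were called higher, for the 87.1% of fitted genes with a length.

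**Figure D3:**
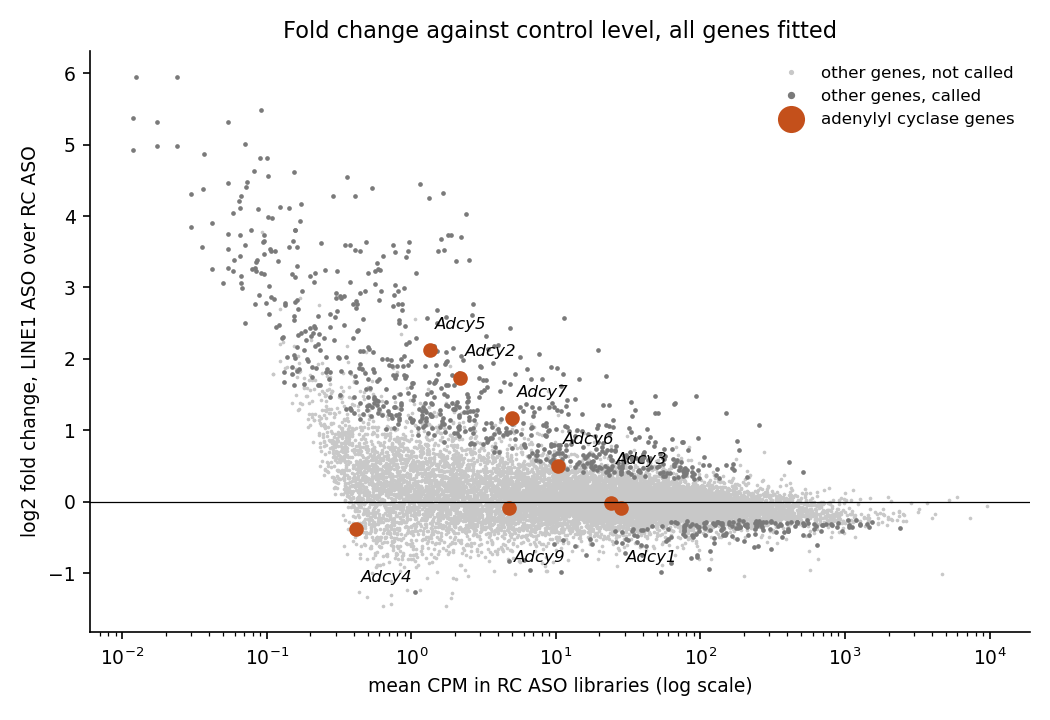
Log2 fold change of LINE1 ASO over RC ASO (vertical axis) against the mean CPM of the RC ASO libraries (horizontal log axis) for the fitted genes with at least 1 control read, called genes in dark grey and the 8 fitted adenylyl cyclase genes in orange. Adcy5, Adcy2 and Adcy7 lie among called genes of 1 to 5 control CPM, and Adcy1, Adcy3 and Adcy9 lie near 0.

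To compare the enzymes with each other, CPM was divided by the length in kb of the longest protein-coding GENCODE M21 transcript. Levels per kb of RC ASO cells were led by Adcy3 at 4.83 ± 1.05, followed by Adcy1 at 2.30 ± 0.191 and Adcy6 at 1.72 ± 0.380 CPM per kb (SD, n = 3 each). Then came Adcy9 at 0.956 ± 0.0594, Adcy7 at 0.838 ± 0.121, Adcy2 at 0.519 ± 0.119, Adcy5 at 0.192 ± 0.0435 and Adcy4 at 0.119 ± 0.0272 CPM per kb. In that order the library ranges of neighbours overlapped for Adcy1 and Adcy6, for Adcy9 and Adcy7 and for Adcy5 and Adcy4. In LINE1 ASO cells the levels were 4.76 ± 1.011 for Adcy3, 2.44 ± 0.373 for Adcy6, 2.17 ± 0.176 for Adcy1, 1.88 ± 0.339 for Adcy7 and 1.73 ± 0.368 for Adcy2 (CPM per kb, SD, n = 3 each). The ranges of Adcy6 and Adcy1, of Adcy1 and Adcy7 and of Adcy7 and Adcy2 overlapped there, so these 4 genes form no clear order in LINE1 ASO cells. Adcy9 at 0.898 ± 0.135 and Adcy5 at 0.832 ± 0.184 CPM per kb also overlapped, and Adcy4 was at 0.0923 ± 0.0267.

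The summed CPM of the 9 genes was 94.1 ± 5.50 in the LINE1 ASO arm and 76.2 ± 9.66 in the RC ASO arm (SD, n = 3 each), 1.23 times as high. The make-up per kb shifted more than the sum. The beta-gamma-stimulated enzymes made up 25.1% ± 5.31 of the summed level per kb in LINE1 ASO libraries and 12.8% ± 0.980 in RC ASO libraries, and the calcium-inhibited pair 22.1% ± 1.36 and 16.5% ± 1.07 (SD, n = 3 each). The calmodulin-stimulated enzymes made up 46.7% ± 5.82 in LINE1 ASO libraries and 62.2% ± 0.797 in RC ASO libraries, and Adcy9 6.05% ± 0.669 and 8.45% ± 1.28. Libraries of the arms did not overlap in any of these 4 shares. The shares are parts of a whole, so where some enzymes rise the shares of the others must fall. They also rest on genes picked on this difference, so nothing is read from the overlap. The calmodulin-stimulated genes themselves summed to 50.3 CPM in the LINE1 ASO arm and 52.2 CPM in the RC ASO arm. Adcy9 was at 4.47 and 4.76 CPM. The Adcy1 share depends on its transcript of 12259 bases. By coding length, chosen after seeing the data, Adcy1 had 29.0% in LINE1 ASO and 38.2% in RC ASO libraries, against 14.7% and 20.3% by transcript length, and it passed Adcy3 (24.97% and 31.3% by coding length, 32.0% and 41.8% by transcript length).

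**Figure D4:**
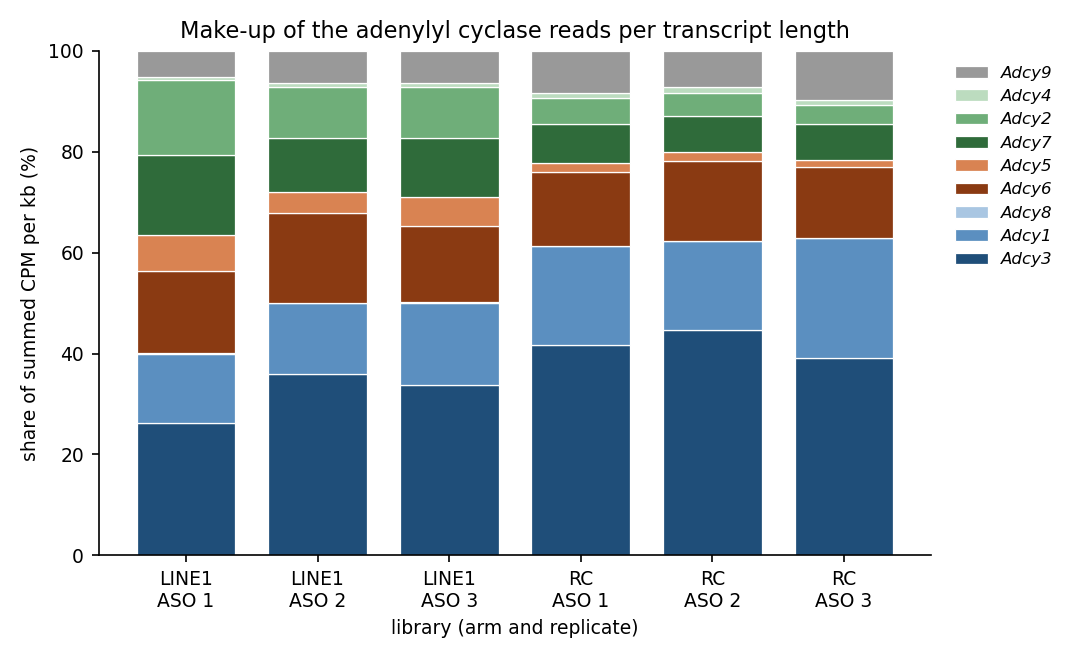
Share of each gene in the summed CPM per kb of transcript of the 9 adenylyl cyclase genes (vertical axis, percent) in each library (horizontal axis, LINE1 ASO left of RC ASO), with blues for calmodulin-stimulated, browns for calcium-inhibited and greens for beta-gamma-stimulated enzymes and grey for Adcy9. The calmodulin-stimulated enzymes take 40.0% to 50.2% in LINE1 ASO libraries and 61.3% to 62.9% in RC ASO libraries.

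Markers of 2-cell-like cells, a rare state of such cultures with features of the 2-cell embryo, also differed between the arms. All 6 measured markers (Zscan4c, Zscan4d, Zfp352, Tcstv1, Tcstv3 and Dux) were called higher, and their summed level was 79.4 to 199.8 CPM in LINE1 ASO libraries and 6.89 to 9.32 CPM in RC ASO libraries. None was without reads in the RC ASO arm. Dux, with 0, 6 and 1 reads in RC ASO replicates 1, 2 and 3, entered the fit through its LINE1 ASO reads. Of other marker lists, 1 of 4 fitted primitive endoderm and 1 of 5 fitted neural markers were called higher, and none of 4 fibroblast and 5 trophoblast markers. Over all fitted genes 4.93% were called higher. With the replicate block, 2 primitive endoderm, 2 neural, 1 fibroblast and 3 trophoblast markers were called higher and 2 fibroblast markers lower, while all 6 markers of 2-cell-like cells stayed higher. Over all genes that fit called 17.6% higher and 16.1% lower. The part of 2-cell-like cells in the cyclase values was not tested. In bulk RNA, a change in the share of cells of a type and a change of RNA per cell cannot be told apart.

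The soluble cyclase Adcy10, which bicarbonate and calcium activate and which is no member of the membrane-bound family, rose. It had 107, 20 and 58 reads in LINE1 ASO replicates 1, 2 and 3 and 4, 3 and 9 in the RC ASO replicates, or 2.02 ± 1.33 CPM in the LINE1 ASO arm and 0.214 ± 0.104 CPM in the RC ASO arm (SD, n = 3 each). The arms did not overlap, and LINE1 ASO replicate 2 was nearest to the control libraries. On the log2 scale the arms differed by 3.20 ± 0.69 (SE), with an adjusted p = 0.0402 (quasi-likelihood F test of edgeR, Benjamini-Hochberg adjustment over all genes). It did not pass with any 1 library left out other than LINE1 ASO replicate 2 (adjusted p = 0.0567 without RC ASO replicate 2 and 0.112 to 0.137 without the others, same edgeR test with Benjamini-Hochberg adjustment).

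Genes that act with, or resemble, the cyclases were called about as often as other genes. Their lists take in the soluble cyclase (1 of 1 fitted gene called higher) and the guanylyl cyclases (2 of 6), which resemble the membrane-bound enzymes. Of 133 fitted genes on 12 lists, 8 rose (6.02%) and 2 fell (1.5%), against 4.93% and 1.17% of all fitted genes, and the median log2 fold change was 0.02, against 0.01 for all. With library totals in place of TMM factors, 12 were higher and 1 lower, while all genes split into 980 higher and 50 lower, against 726 and 173. With the replicate block 28 of the 133 were higher and 15 lower, against 17.6% and 16.1% of all genes. In the added setting without both replicate 2 libraries, 22 of the 133 were higher and 8 lower, against 12.2% and 8.30% of all genes.

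**Figure D5:**
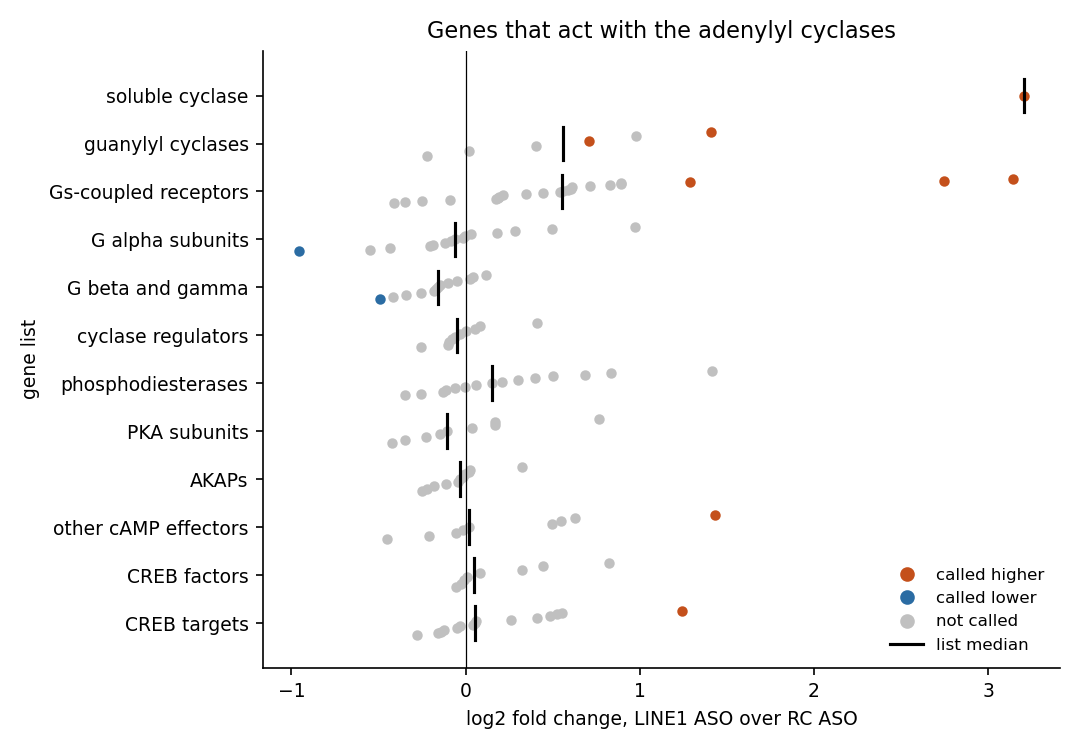
Log2 fold change of LINE1 ASO over RC ASO (horizontal axis) of each fitted gene on 12 lists of genes that act with, or resemble, the adenylyl cyclases (vertical axis), in orange where called higher, blue where called lower and grey otherwise, with the list median as a bar. The lists of Gs-coupled receptors and guanylyl cyclases have medians of 0.55 and 0.56, and the other lists of more than 1 gene have medians between -0.16 and 0.15.

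Receptors coupled to Gs, which switch the cyclases on, were mostly weakly expressed. Of 22 fitted (42 listed, 36 in the table), 3 rose, 0 fell and 19 were not called, with a median log2 fold change of 0.55 and a median control level of 0.769 CPM. Genes under 1 CPM in the RC ASO arm had a median log2 fold change of 0.46. Crhr2, the receptor for urocortins, had 6.41, 4.48 and 4.04 CPM in the LINE1 ASO libraries and 0.937, 0.713 and 0.607 CPM in the RC ASO libraries. This was a 6.70-fold difference (log2 fold change 2.74 ± 0.27, SE, adjusted p = 0.00395 by edgeR with Benjamini-Hochberg adjustment). Tshr, the thyrotropin receptor, rose 8.84-fold (34 to 66 reads in each LINE1 ASO library and 2 to 5 in each RC ASO library). Crhr2 and Tshr passed in all 13 alternatives. With the replicate block 9 receptors were higher and 0 lower, where that fit called 17.6% of all genes higher and 16.1% lower. Shares by control level were not taken for the block fit, so nothing is read from this count.

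Few genes of the G proteins between receptor and cyclase were called. Of 15 fitted alpha subunits 0 rose and 1 fell: Gna14, an alpha subunit of the Gq class, had 3.41 ± 0.417 CPM in the LINE1 ASO arm and 6.63 ± 1.19 CPM in the RC ASO arm (SD, n = 3 each), and its log2 fold change was -0.95. Gnas, which encodes the alpha subunit of Gs that stimulates all 9 enzymes, had 153 ± 25.4 CPM in the LINE1 ASO arm and 176 ± 26.0 CPM in the RC ASO arm (SD, n = 3 each). In the fit, its log2 fold change stood at -0.20 ± 0.14 (SE, adjusted p = 0.458, and 0.00670 with the replicate block, edgeR with Benjamini-Hochberg adjustment). Of 13 beta and gamma subunits 0 rose and 1 fell, Gng3, at 44.6 ± 5.68 CPM in the LINE1 ASO arm and 62.7 ± 2.64 CPM in the RC ASO arm (SD, n = 3 each). The alpha subunit gene Gnal stood at 8.04 ± 0.779 CPM in the LINE1 ASO arm and 4.07 ± 1.99 CPM in the RC ASO arm (SD, n = 3 each). Its log2 fold change of 0.97 ± 0.31 (SE) was not called (adjusted p = 0.114, edgeR with Benjamini-Hochberg adjustment). Exons of Gng3 share 398 bases with the oppositely transcribed Bscl2, and those of Gnal 852 with Mppe1. Those of Gnas share 988 with Nespas and 1469 with Gm20721. Reads from these stretches cannot be told apart. Gna14 and Gng3 did not pass without RC ASO replicate 1 or 3 or LINE1 ASO replicate 1 or 3 (adjusted p = 0.0582 to 0.142), nor Gng3 with library totals (0.0672, edgeR with Benjamini-Hochberg adjustment). With the block, 2 alpha subunits were higher and 3 lower, and 0 and 3 of the beta and gamma subunits. Over all genes the block fit called 17.6% higher and 16.1% lower. Of 10 other regulators, among them calmodulin and the cyclase-associated proteins, 0 rose and 0 fell, and the lowest p belonged to Calm3 (log2 fold change -0.26 ± 0.09, SE, adjusted p = 0.153, 0.00137 with the block and under 0.05 without LINE1 ASO replicate 2, edgeR with Benjamini-Hochberg adjustment).

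Downstream of cyclic AMP, most lists held no called gene in the fit without the replicate block. With the block each of them held called genes. Of 15 fitted phosphodiesterases 0 were called. Pde11a had the lowest p among them, with 23, 13 and 14 reads in the LINE1 ASO libraries and 4, 6 and 5 in the RC ASO libraries (adjusted p = 0.0638, 0.0499 with library totals, 0.0210 with the replicate block and 0.0369 without both replicate 2 libraries, edgeR with Benjamini-Hochberg adjustment). Pde4d stood at -0.26 ± 0.11 (log2 fold change, SE, adjusted p = 0.228, and 0.0291 with the block, same edgeR test with Benjamini-Hochberg adjustment). Of 9 protein kinase A subunits and inhibitors 0 were called. The catalytic subunit gene Prkaca was at -0.23 ± 0.10 (log2 fold change, SE) and the regulatory subunit gene Prkar2a at -0.35 ± 0.12, with adjusted p = 0.214 and 0.132 (0.00576 and 0.00116 with the block, edgeR with Benjamini-Hochberg adjustment). Of 11 A-kinase anchoring protein genes 0 were called, the lowest p being that of Akap13 (0.32 ± 0.10, SE, adjusted p = 0.0981, 0.0433 with library totals and 0.00398 with the block, edgeR with Benjamini-Hochberg adjustment). With the block, 3 phosphodiesterases, 2 kinase A genes and 1 anchoring protein gene were higher, and 2 of each were lower. That fit called 17.6% of all genes higher and 16.1% lower.

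Among 9 fitted genes of other cyclic nucleotide effectors, 1 rose and 0 fell. Whether cyclic AMP acts on their products in these cells was not tested. Cnga3, a cyclic nucleotide-gated channel subunit known from cone photoreceptors, had 41.3, 33.6 and 35.4 CPM in the LINE1 ASO libraries and 11.9, 17.8 and 11.0 CPM in the RC ASO libraries. The arms did not overlap (log2 fold change 1.43 ± 0.19, SE, adjusted p = 0.00768 by edgeR with Benjamini-Hochberg adjustment), and Cnga3 passed in all 13 alternatives. Of 8 CREB family factors and coactivators 0 were called. Creb1, the factor that protein kinase A phosphorylates, was at -0.05 ± 0.10 (log2 fold change, SE) and at 0.03 with library totals, and Crtc3, a coactivator, was at 0.82 ± 0.30 (adjusted p = 0.154, and 0.0134 with the block, edgeR with Benjamini-Hochberg adjustment). Without RC ASO replicate 2, Crtc3 stood at 1.24 and passed (adjusted p = 0.0120, same edgeR test with Benjamini-Hochberg adjustment). Of 15 fitted genes known to be induced through CREB, 1 rose and 0 fell, and the median log2 fold change was 0.05. The 1 was Btg2, an antiproliferative gene that p53 also induces, at 115 ± 15.6 CPM in the LINE1 ASO arm and 48.7 ± 18.4 CPM in the RC ASO arm (SD, n = 3 each). It did not pass without RC ASO replicate 1 or 3 or LINE1 ASO replicate 1 or 3 (adjusted p = 0.0772 to 0.124, edgeR with Benjamini-Hochberg adjustment). With the block, 2 other effectors were higher and 1 lower, 3 and 0 of the CREB factors and coactivators, and 2 and 1 of the CREB-induced genes. Over all genes that fit called 17.6% higher and 16.1% lower.

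The guanylyl cyclases, whose catalytic domains are related to those of the adenylyl cyclases, include 6 fitted genes, of which 2 rose and 0 fell. With the block 3 were higher and 0 lower. Of all genes 4.93% were called higher, and 17.6% with the block. Npr1, the receptor for atrial natriuretic peptide, had 34.0 ± 2.92 CPM in the LINE1 ASO arm and 20.8 ± 1.13 CPM in the RC ASO arm (SD, n = 3 each), a 1.64-fold difference (adjusted p = 0.00962 by edgeR with Benjamini-Hochberg adjustment). Its exons share 559 bases with the antisense gene Gm16048. Gucy2e, a retinal form, had 1.58 ± 0.309 CPM in the LINE1 ASO arm and 0.589 ± 0.0792 CPM in the RC ASO arm (SD, n = 3 each), 2.65-fold. Npr1 did not pass without RC ASO replicate 1 (adjusted p = 0.0579) or 3 (0.0662), nor Gucy2e without either of these or LINE1 ASO replicate 1 or 3 (0.0711 to 0.124, edgeR with Benjamini-Hochberg adjustment).

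Genes next to the cyclases on the chromosome were also compared, taking the nearest fitted gene on each side in RefSeq. Of these 18 neighbours 1 was called, Ltb4r1, a leukotriene B4 receptor gene beside Adcy4, with 2.71 CPM in the LINE1 ASO arm and 0.678 CPM in the RC ASO arm (log2 fold change 2.00 ± 0.32, SE, adjusted p = 0.0164 by edgeR with Benjamini-Hochberg adjustment). It did not pass without RC ASO replicate 1 (0.0767) or 3 (0.0890). Of all fitted genes 4.93% were called higher and 1.17% lower. The neighbours of Adcy2 were at 0.06 ± 0.14 (Fastkd3) and -0.12 ± 0.16 (Srd5a1), those of Adcy7 at -0.13 ± 0.11 (Heatr3) and 0.19 ± 0.37 (Nkd1), and those of Adcy5 at 1.05 ± 0.55 (Mylk) and 0.05 ± 0.12 (Sec22a), as log2 fold changes with SE. None of these 6 was called. Fastkd3, Nkd1 and Sec22a changed sign in some alternatives.

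The genes whose log2 CPM followed the 3 called cyclases most closely over the 6 libraries, out of 12037 searched, were Rtn4rl1 and Zfp750 for Adcy2, Gprc5c and Mdm2 for Adcy7, and AI837181 and Slc4a11 for Adcy5. Likeness was measured by Pearson correlation, from 0.9977 to 0.9989, which mainly carries the gap between the arms and takes no account of its size. Slc4a11, a transporter of the bicarbonate family, was 3.39-fold higher in the LINE1 ASO arm, at 75.5 CPM, against 22.3 CPM in the RC ASO arm, whereas AI837181 was at 23.9 and 21.3 CPM in these arms. Mdm2, the ubiquitin ligase of p53, was at 352.5 CPM in the LINE1 ASO arm and 149 CPM in the RC ASO arm.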

How the data were processed

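Messenger RNA of sorted embryonic stem cells was sequenced in 3 LINE1 ASO and 3 RC ASO libraries made, per the labels' protocols, with a directional kit. The tables the authors deposited hold unnormalized counts of reads for each gene symbol and each repeat name. The submitters' processing notes name TopHat2 2.0.9, HTSeq 0.6.1p1, R 3.3.0, DESeq2 1.12.3 and mm9; how strand and reads with several matches were treated, and the annotation release, is not given in the sources used here. The members and gene lists were chosen with earlier results of these data known.

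Counts were fitted in R 4.3.3 with edgeR 4.0.16: filterByExpr defaults (minimum count 10, minimum total 15), TMM factors, robust quasi-likelihood F tests and Benjamini-Hochberg adjustment over 14725 genes. The SE was derived from the F statistic (log2 fold change over its square root). The CPM are counts over TMM-scaled totals; a prior of 0.25 reads was added for log2 CPM in likeness, principal components and within-number ratios. Lengths come from GENCODE M21 (GRCm38), and no coordinate was converted between builds. Pathway genes named are up to 4 called per list by smallest p, the smallest p where none was called, and Gnas, Prkaca, Creb1, Adcy10 and Pde4d. One gene that this rule names is not reported here. Added to these are the nearest fitted neighbours and the 2 genes most like each called cyclase among those averaging 1 or more in log2 CPM. Gnal was named in addition for the size of its fold change.

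The alternatives tried were library totals or RLE factors for scaling, DESeq2 1.42.0, no filter on counts or one of 1 CPM throughout an arm, the replicate number as a block, each library left out, and, added after the data were seen, leaving out both replicate 2 libraries and coding lengths. Replicates are numbered 1 to 3 in both arms. Deviations from arm means correlated at 0.387, 0.617 and 0.340 for same-numbered libraries and at -0.448 to 0.200 for others. On this basis the replicate number was used as a block in an alternative fit. The main fit leaves the pairing out, and what a number stands for is not in the labels. The block fit called 17.6% of genes higher and 16.1% lower, against 4.93% and 1.17% in the main fit. No 2 libraries of an arm agreed within sampling noise (chi-square per degree of freedom 8.68 to 38.7).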

Additional observations from a re-analysis of the deposited data

How the results depend on the processing

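All fitted adenylyl cyclase fold changes moved by less than 1 SD between replicates in all 102 alternative values. The number of them called, 3, ranged from 1 to 4 with 1 library left out. Genes called higher and lower numbered 2591 and 2373 with the replicate block, 1810 and 1229 without both replicate 2 libraries and 158 to 1040 and 2 to 479 with 1 library left out. DESeq2 called 599 lower and library totals 50, against 173. Cyclic AMP pathway genes called higher, 8, were 13 with DESeq2, 28 with the block, 23 without both replicate 2 libraries (22 of those fitted with all libraries) and 3 to 17 with 1 library left out. Those called lower, 2, were 1 with library totals, 15 with the block, 8 without both replicate 2 libraries and 0 to 3 with 1 library left out. The block, which rests on the pairing by replicate number, called Adcy6 at a log2 fold change of 0.51 and Gnas at -0.21, and the direction of each fitted cyclase stayed as in the fit without it. Uncalled values changed sign with library totals for Creb1 (0.030) and Cenpo (0.078). With 1 library left out, Fastkd3 ranged from -0.0995 to 0.138, Nkd1 from -0.171 to 0.650, Sec22a from -0.055 to 0.0804 and Cenpo from -0.081 to 0.026; without both replicate 2 libraries Sec22a was -0.036 and Cenpo 0.0036. The cause was not tested for any of these. Shares by coding length from the RefSeq protein were not run. Adcy4, with 7 to 14 reads per library, and Adcy8 are limited by depth.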
